A study of Homo sapiens with 32 samples.

Results

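The transcripts described here are those of the insulin-like growth factor (IGF) binding proteins and the receptors and adaptors of IGF signalling in cultured esophageal epithelial cells. They were chosen by name, as the rows of the expression table with the symbols IGFBP2, IGFBP3, IGFBP4, IGFBP5, IGFBP6, IGFBP7, IGF1R, IGF2R, IRS1 and IRS2. These are 10 of the 19345 gene symbols of the table, with 6 binding proteins, 2 receptors and 2 adaptors. The rule names symbols and uses no measured value, but earlier results of these data were known when it was made.

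IGF1 and IGF2 are small secreted growth factors, and in tissue fluid most of their molecules are held by IGF-binding proteins, which lengthen the lifetime of the ligand and set how much of it reaches a receptor. IGF1R is the tyrosine kinase receptor that carries the growth signal, and IRS1 and IRS2 are the adaptor proteins that it phosphorylates and that pass the signal to PI3 kinase and AKT. IGF2R, also known as the cation-independent mannose 6-phosphate receptor, takes IGF2 to the lysosome and has no kinase of its own. In stratified squamous epithelium such as epidermis, IGFBP3 is known as a product of the proliferating basal layer.

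All cells were EPC2, a human esophageal epithelial line immortalized with hTERT, wild type in genotype and a single line. The 10 monolayer libraries were made at D0, before the cells were seeded. The 9 D3 and 7 untreated D11 spheroid libraries came from 40000 cells per droplet of 20 µl Matrigel, cultured in serum-free keratinocyte medium (KSFM) whose CaCl2 was 0.6 mM. The 6 IL-13 libraries came from D11 spheroids that received the cytokine IL-13 at 20 ng/ml from D3 on. Total RNA was sequenced in 2 experiments, which the labels call batch 1 and batch 2. Batch 1 holds 5 monolayer, 4 D3, 5 IL-13 and 4 untreated D11 libraries, and batch 2 holds 5, 5, 1 and 3. The IL-13 columns could be matched to their group but not to their batch, and library numbers below are column numbers. No label ties a library to a culture of its own, so p-values measure the spread between libraries, which may be partly technical.

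Levels are in TPM, the share of a library's transcripts that a gene takes after allowing for transcript length, and every library sums to between 999960 and 999989. The number of reads is therefore unknown. Mitochondrially encoded transcripts took 47.8% ± 7.27 of the TPM at D3 and 47.6% ± 2.00 in monolayers, and 21.0% ± 4.75 in IL-13 and 21.9% ± 3.98 in untreated D11 spheroids (SD over libraries). On the first principal component, D3 libraries 2, 7 and 8 were at -25.5 to -24.5 and D3 libraries 1, 3, 4, 5 and 6 at 9.61 to 12.3. D3 library 9 lay between them, at -7.56. The mitochondrial share was 53.1 to 57.1% in D3 libraries 2, 7, 8 and 9, against 39.1 to 45.8% in D3 libraries 1, 3, 4, 5 and 6. Library 4 of batch 1 and library 7 of batch 2 each lay with the libraries of the other batch. Whether these 2 labels were exchanged was not tested, and every D3 value within a batch depends on them. The 2 libraries were singled out from these same data, so batch values without them follow in part from that choice. IL-13 library 1 was at 78.2 on the first component, while the other IL-13 libraries were at 49.4 to 56.7. The squamous keratins KRT5 and KRT14 and the other 8 squamous markers were all found in the spheroids. Of 12 fibroblast markers, COL1A1 and VIM alone reached 1 TPM in any library, and COL1A2 and COL3A1 were listed at 0 in all 32. The summed fibroblast markers, most of it VIM, were 124 to 212 TPM at D3 against 1327 to 1835 TPM in monolayers. COL1A1 went the other way, with a mean of 19.6 TPM at D3 against 5.94 TPM in monolayers, a change of 1.45 with an adjusted p of 5.3e-08, and a mean of 69.9 TPM in untreated D11 spheroids. Of 8 endothelial markers CLDN5 alone reached 1 TPM and PECAM1 was listed at 0 throughout, and their sum was 4.1 to 13.4 TPM in IL-13 against 0.1 to 0.4 TPM in untreated D11 spheroids. The immune markers detected were CD68, CSF1R and CD14, with PTPRC below 1 TPM in all libraries. Their sum was 222 to 267 TPM at D3 against 196 to 285 TPM in monolayers, and 436 to 559 TPM in IL-13 against 522 to 587 TPM in untreated D11 spheroids, with CD14 alone at a mean of 30.2 TPM at D3 against 2.31 TPM in monolayers. Columnar markers, mostly KRT18, summed to 63.9 to 123 TPM at D3 against 292 to 538 TPM in monolayers, with MUC2 and MUC5AC listed at 0 throughout. The part of these markers in the results was not tested. Fewer cells of a kind and less RNA per cell cannot be told apart in such bulk libraries.

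Each change is given on the log2(TPM + 1) scale, which understates the change of low genes, with its standard error (SE), from limma's moderated test in 1 fit of all 32 libraries with batch as a term. A change was called at a Benjamini-Hochberg adjusted p under 0.05 over the 12221 genes with at least 1 TPM in at least 6 libraries. All 10 members entered the fit. IGFBP5 did so only through its 9 D3 libraries, so its changes at D3 against monolayers and at D11 against D3 had to follow from the filter and support nothing. IGFBP2 reached 1 TPM in no monolayer library and passed only through spheroids, so its rises against monolayers are not independent of the filter. The comparisons share groups: D3 spheroids enter 2 of them, monolayers 2 and untreated D11 spheroids 3.

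The move to spheroids came with a large rise of IGFBP3 and smaller rises of IGFBP6 and IGFBP2. In D3 spheroids against monolayers, 4 of the 10 members were higher, all of them binding proteins, and 5 were lower, namely IGFBP4, IGFBP7, IGF1R, IGF2R and IRS2. Without IGFBP5, whose call the filter fixed, 3 of 9 were higher and 5 lower. The 3 include IGFBP2, which passed the filter only through spheroids. Over all genes tested, 12.7% were called higher and 68.2% lower in this comparison, so the share of members called lower is no larger than that of all genes. The median of all genes tested was -0.44, and median-of-ratios scaling brought it to -0.01. Under that scaling the 9 calls among the members were made in the same directions, while the split of all genes was 4063 higher and 4052 lower in place of 1556 and 8339. IRS1 was the member not called, at -0.36 ± 0.20 with an adjusted p of 0.097.

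Between D3 and D11, IGFBP6 and IRS1 fell and IRS2 rose. In untreated D11 spheroids against D3 spheroids, 2 members were higher, IRS2 and IGF1R, and 4 were lower, IGFBP6, IRS1, IGFBP5 and IGF2R. Without IGFBP5, whose call the filter fixed, 2 of 9 were higher and 3 lower. Of all genes tested, 33.6% were called higher and 35.8% lower. When the mitochondrially encoded genes were taken out and each library rescaled to the same total, the median of all genes moved from -0.02 to -0.49, with 1718 genes higher and 8326 lower in place of 4102 and 4370. All 10 members were then called, 1 higher and 9 lower. IRS2 was the one called higher, and IGF1R turned to -0.25, with an adjusted p of 0.012. IGFBP2, IGFBP3, IGFBP4 and IGFBP7, not called as deposited, were called lower, at -0.50, -1.23, -0.61 and -0.76.

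Over the whole course, IGFBP3 and IGFBP2 were higher and IGFBP4, IGFBP6, IGFBP7, IGF1R, IGF2R and IRS1 lower. These 2 and 6 members were called in untreated D11 spheroids against monolayers, where 21% of all genes tested were called higher and 63.5% lower. The median of all genes was -0.48 and came to 0.00 under median-of-ratios scaling, with 4916 genes higher and 4902 lower in place of 2561 and 7765. IGF1R then stood at -0.17 with an adjusted p of 0.047. IRS2 turned from -0.08, with an adjusted p of 0.68, to 0.48, with an adjusted p of 0.030. Removal of the mitochondrial genes moved the median the other way, to -0.97, with 1533 genes higher and 10058 lower. In that setting 2 members were called higher and 7 lower.

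IL-13 went with a lower level of IRS1 and, in the fit across all libraries, higher levels of IGFBP4 and IGF2R. These 2 higher members and 1 lower member were called in IL-13 against untreated D11 spheroids, where 39.2% of all genes tested were called higher and 8.49% lower. The median of all genes was 0.19 and came to 0.00 under median-of-ratios scaling, with 2362 genes higher and 2515 lower in place of 4785 and 1037. IGF2R was then not called, at 0.19 with an adjusted p of 0.26. IGFBP6 and IGF1R were called lower under that scaling, at -0.40 and -0.33, with adjusted p of 0.030 and 0.0029.

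**Figure D1:**
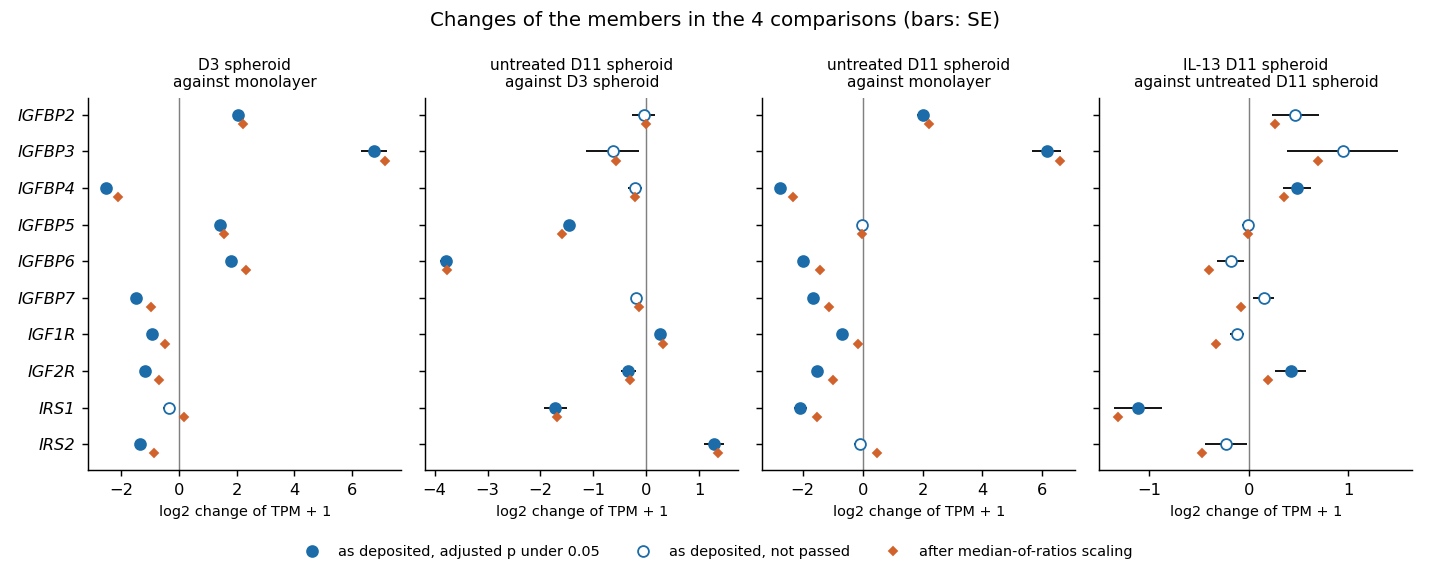
Log2 change of TPM + 1 of each member in the 4 comparisons (x axis, whose range differs between panels); circles are the values as deposited with SE bars, filled where the adjusted p was under 0.05, and diamonds are the values after median-of-ratios scaling. IGFBP3 stands at 6.77 in D3 spheroids against monolayers, IGFBP6 at -3.79 in untreated D11 against D3 spheroids, and IRS1 at -1.12 in IL-13 against untreated D11 spheroids.

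IGFBP3, the main carrier of IGFs in serum and a secreted protein with effects of its own on cell growth, moved furthest of the 10. It was at 48.9 to 783.3 TPM at D3, with a median of 718.9, against 0.6 to 2.3 TPM in monolayers, with a median of 1.4. The groups did not overlap, and the change was 6.77 ± 0.45 (SE) with an adjusted p of 2.5e-14. The mean of 448 TPM put it at place 146 from the top of the 19345 symbols at D3, against place 10793 in monolayers. The D3 libraries did not form 1 cluster. Libraries 1, 3, 4, 5 and 6 had 718.9, 761.3, 722.6, 783.3 and 724.4 TPM, while libraries 2, 7, 8 and 9 had 58.8, 52.8, 48.9 and 160.9 TPM. The 2 sets are named from these IGFBP3 values. On the first principal component libraries 2, 7 and 8 lay apart from the higher set, with library 9 in between. The lower set had the higher mitochondrial share. Within batch 1 the change was 5.55 ± 0.65 and within batch 2 it was 7.87 ± 0.62, a difference of 2.32 with an adjusted p of 0.039. Without D3 libraries 4 and 7 that difference was 3.88, with 8.63 in batch 2 and 4.75 in batch 1. This leaves 1 of the 2 sets in each batch, so the larger difference follows from the choice and supports nothing.

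In untreated D11 spheroids IGFBP3 was at 75.5 to 284.5 TPM, with a median of 147.9. These levels lay between the 2 sets of D3 libraries and overlapped the lower one. The change against D3 was -0.63 ± 0.50 and was not called, with an adjusted p of 0.27. With library weights it was -2.11 and called, with an adjusted p of 1.1e-04, and with mitochondrial genes removed it was -1.23 and called, with an adjusted p of 0.017. Without D3 libraries 4 and 7 it was -1.56 in batch 2 and called, and 0.53 in batch 1 and not called, a difference with an adjusted p of 2.3e-04. With 1 of the 2 sets of D3 libraries left in each batch, that difference too follows from the choice and supports nothing. Against monolayers it was 6.14 ± 0.49, with an adjusted p of 6.7e-13 and no overlap. Batch 2 spheroids, libraries 4, 6 and 7, had 268.8, 211.9 and 284.5 TPM. Batch 1 spheroids, libraries 1, 2, 3 and 5, had 104.6, 75.5, 134.9 and 147.9 TPM and lay below all 3 of batch 2.

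IL-13 spheroids had 326.9, 201.3, 316.8, 365.4, 264.7 and 201.9 TPM of IGFBP3, against 75.5 to 284.5 TPM in untreated D11 spheroids. All 6 lay above the highest batch 1 untreated library and overlapped those of batch 2. The change was 0.94 ± 0.56 and was not called in the fit of all libraries, with an adjusted p of 0.17. That fit takes its spread from all groups, D3 included. In a fit of the IL-13 and untreated D11 libraries alone it was 1.08 ± 0.19 and called, with an adjusted p of 9.9e-04. Against the 4 batch 1 untreated libraries alone it was 1.27, with an adjusted p of 0.0023, a comparison chosen after the data were seen.

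IGFBP6, which binds IGF2 more tightly than IGF1, was higher at D3 than in any other group. It was at 72.1 to 145.3 TPM at D3, with a median of 97.3, against 19.6 to 43.3 TPM in monolayers, with a median of 28.0. No library of either group reached the other group's range, and the change was 1.81 ± 0.11 with an adjusted p of 1.4e-15. It fell to 5.0 to 7.9 TPM in untreated D11 spheroids, with a median of 7.0, below every D3 and every monolayer library. The change against D3 was -3.79 ± 0.12 with an adjusted p of 9.6e-22, and against monolayers -1.98 ± 0.12 with an adjusted p of 4.6e-16. IL-13 spheroids had 4.7 to 8.2 TPM, with a median of 6.45, and overlapped the untreated libraries throughout. The change with IL-13 was -0.18 ± 0.13, with an adjusted p of 0.26. Among the D3 libraries IGFBP6 ran opposite to IGFBP3, with 109.6 to 145.3 TPM in libraries 2, 7, 8 and 9 and 72.1 to 97.3 TPM in libraries 1, 3, 4, 5 and 6.

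IGFBP5, known for its tight binding to extracellular matrix, was detected at D3 and hardly elsewhere. D3 libraries had 1.4 to 2.5 TPM, with a median of 1.7, while 8 of 10 monolayer libraries were listed at 0 and libraries 8 and 10 at 0.1 TPM. All 7 untreated D11 libraries and all 6 IL-13 libraries were listed at 0. A listed 0 can be a failed estimate, so no fold is given against those groups. The fitted difference was 1.43 ± 0.05 at D3 against monolayers, which the filter fixed. IGFBP5 and IGFBP2 are neighbours on chromosome 2, with 7668 bases between them.

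IGFBP2, a circulating binding protein that can also attach to integrins, appeared with the spheroids and stayed. It was at 1.1 to 6.6 TPM at D3, with a median of 4.3, while 9 of 10 monolayer libraries were listed at 0 and library 4 at 0.1 TPM. The change was 2.06 ± 0.19 with an adjusted p of 5.1e-11, for a gene that passed the filter only through spheroid libraries. D3 libraries 1, 3, 4, 5 and 6 had 4.3 to 6.6 TPM and libraries 2, 7, 8 and 9 had 1.1 to 2.3 TPM, the same order of the sets as for IGFBP3. Untreated D11 spheroids had 2.3 to 4.1 TPM, with a median of 3.0, inside the D3 range, and the change against D3 was -0.05 ± 0.21 with an adjusted p of 0.85. Without D3 libraries 4 and 7 it was -0.65 in batch 2 and 0.63 in batch 1, both called and opposite in sign. The D3 libraries then left had 4.3 to 6.5 TPM in batch 2 and 1.1 to 2.3 TPM in batch 1. That contrast follows from the choice of the libraries left out and supports nothing. IL-13 spheroids had 3.0 to 5.4 TPM, with a median of 4.4, and overlapped the untreated libraries. The change with IL-13 was 0.47 ± 0.24 with an adjusted p of 0.11, and it was called in the fit of these 2 groups alone, at 0.41 with an adjusted p of 0.024.

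IGFBP4, known mostly as an inhibitor of IGF action, and IGFBP7, a low-affinity IGF binder also called IGFBP-rP1, went the other way. IGFBP4 was at 0.6 to 1.7 TPM at D3, with a median of 1.1, against 9.8 to 13.4 TPM in monolayers, with a median of 11.3. The groups were far apart, and the change was -2.53 ± 0.12 with an adjusted p of 2.4e-18. It was at 0.4 to 1.5 TPM in untreated D11 spheroids, not called against D3 at -0.21 ± 0.13 with an adjusted p of 0.15. In IL-13 spheroids it was 0.5, 1.9, 2.1, 1.6, 2.0 and 2.0 TPM, so that 5 of the 6 lay above every untreated D11 library and library 1 lay inside their range. The change with IL-13 was 0.48 ± 0.14 with an adjusted p of 0.0069. It was not called in the fit of these 2 groups alone, at 0.39 with an adjusted p of 0.079.

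IGFBP7 was at 8.6 to 13.3 TPM at D3, with a median of 10.8, against 26.3 to 41.7 TPM in monolayers, with a median of 32.2. The ranges were separate, and the change was -1.48 ± 0.08 with an adjusted p of 5.4e-16. In monolayers it was 35.4 to 41.7 TPM in batch 2 and 26.3 to 29.1 TPM in batch 1, and its change at D3 was -1.77 in batch 2 and -1.16 in batch 1. It was at 8.8 to 10.7 TPM in untreated D11 spheroids, where the change against D3 was -0.19 ± 0.09 with an adjusted p of 0.069. IL-13 spheroids had 9.7 to 11.9 TPM and overlapped the untreated ones, with a change of 0.15 ± 0.10 and an adjusted p of 0.24.

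**Figure D2:**
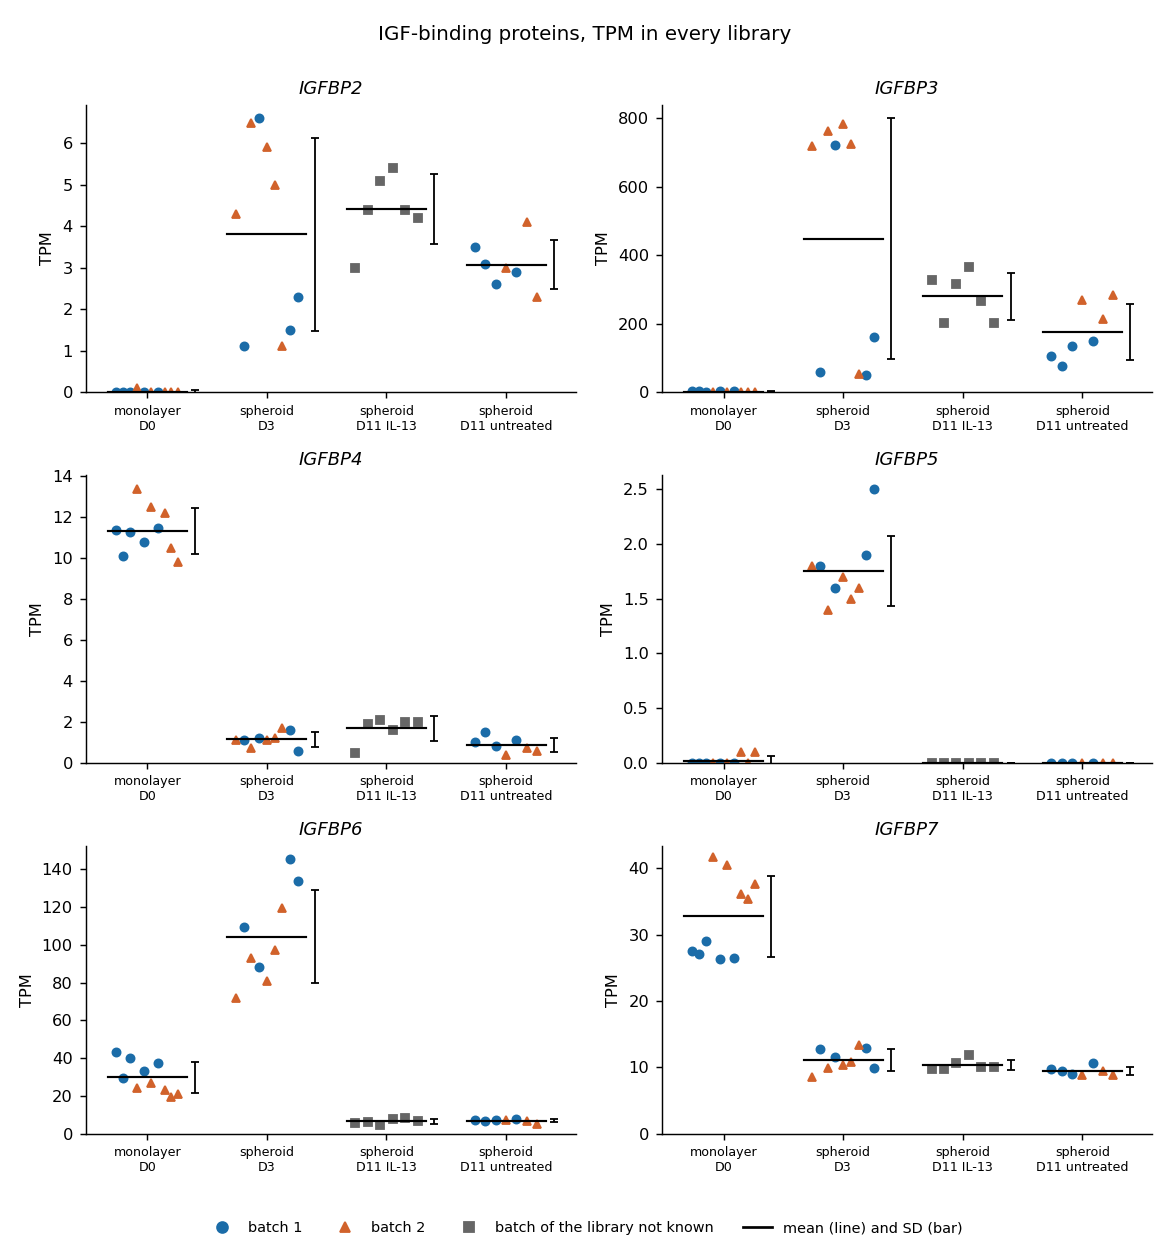
TPM of the 6 binding proteins in every library (y axis, from 0) by group (x axis); circles are batch 1, triangles batch 2 and squares IL-13 libraries whose batch is not known, with a line at the mean and a bar of 1 SD. IGFBP3 is at 0.6 to 2.3 TPM in monolayers and falls into 2 sets at D3, IGFBP6 peaks at D3 with 72.1 to 145.3 TPM, and IGFBP5 is listed at 0 in all D11 libraries.

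The promoters of the 3 binding proteins below are shown because their transcripts, highest on average at D3, stood at different levels at D11. IGFBP3 was then above its monolayer level, IGFBP6 below it and IGFBP5 listed at 0. Each is the 250 bases before and 50 after the annotated start, 5′ to 3′, from RefSeq on GRCh38.p14, where 9 of the 10 members had an entry. The IGFBP3 window is chr7:45921223-45921522 on the minus strand, that of IGFBP5 chr2:216695500-216695799 on the minus strand, and that of IGFBP6 chr12:53097417-53097716 on the plus strand. Capitals mark matches, on either strand, to 7 short motifs: TATAAA and TATATA of TATA boxes, GGGCGG of GC boxes, TGANTCA of AP-1, GGAATG of TEAD factors, the spaced palindrome of STAT6, and ACGTG, the core of hypoxia response elements.
IGFBP3: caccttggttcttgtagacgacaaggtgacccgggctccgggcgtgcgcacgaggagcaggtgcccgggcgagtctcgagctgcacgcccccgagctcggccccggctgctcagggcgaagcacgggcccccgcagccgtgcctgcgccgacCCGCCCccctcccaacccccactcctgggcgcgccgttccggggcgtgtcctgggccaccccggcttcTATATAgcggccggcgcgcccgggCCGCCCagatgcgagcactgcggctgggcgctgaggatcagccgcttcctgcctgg
IGFBP5: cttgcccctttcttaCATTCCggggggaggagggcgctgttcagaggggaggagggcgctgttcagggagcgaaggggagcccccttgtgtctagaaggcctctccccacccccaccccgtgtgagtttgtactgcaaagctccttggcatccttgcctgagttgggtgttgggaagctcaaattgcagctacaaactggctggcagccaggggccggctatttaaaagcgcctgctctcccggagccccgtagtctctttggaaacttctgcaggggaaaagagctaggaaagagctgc
IGFBP6: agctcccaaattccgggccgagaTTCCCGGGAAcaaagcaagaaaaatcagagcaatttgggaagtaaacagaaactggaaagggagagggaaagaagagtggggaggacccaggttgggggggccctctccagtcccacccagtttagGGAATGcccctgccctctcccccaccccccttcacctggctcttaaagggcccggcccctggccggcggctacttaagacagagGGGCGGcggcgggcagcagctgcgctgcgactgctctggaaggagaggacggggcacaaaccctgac
The IGFBP3 window held TATATA at position -30, a motif in 3.99% of 35116 RefSeq promoters of this length, and GC boxes at -98 and -6, a motif in 44.95% of them. The IGFBP5 window held the TEAD motif at -235, found in 14.0% of promoters. That of IGFBP6 held it at -101, with a GC box at -17 and the STAT6 spacing at -227, the last in 6.44% of promoters. IGFBP3 was the most GC-rich of the 3 windows at 74.7%, with IGFBP6 at 61.7% and IGFBP5 at 59.0%, and the median promoter was at 58.7%. The STAT6 spacing was also found in the IGFBP4 window, at -181. These matches describe the letters and show no binding.

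The sum of the 6 binding proteins and its makeup are given as a description, with no test. The summed level was 75.4 ± 6.28 TPM in monolayers, 570 ± 331 TPM at D3, 302 ± 68.7 TPM in IL-13 D11 spheroids and 196 ± 79.7 TPM in untreated D11 spheroids (SD; n = 10, 9, 6 and 7). The IL-13 and untreated D11 ranges overlapped, at 224 to 392 and 96.4 to 301 TPM. IGFBP3 made up 1.88% of that sum in monolayers, 63.6% at D3, 92.1% in IL-13 and 87.8% in untreated D11 spheroids. IGFBP7 and IGFBP6 led in monolayers, with 43.8% and 39.2%. At D3 IGFBP6 was still 31.6%, and it exceeded IGFBP3 in libraries 2, 7 and 8, with a share of 68.5% in library 8. By D11 IGFBP6 was down to 2.25% with IL-13 and 4.14% without.

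**Figure D3:**
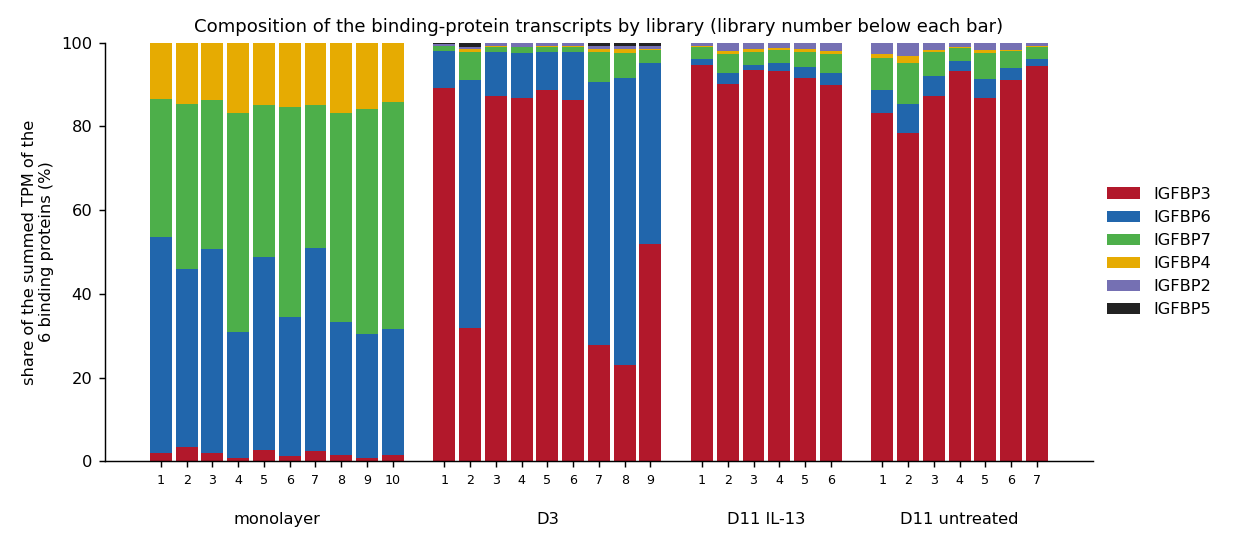
Share of each binding protein in the summed TPM of the 6 (y axis, percent) in every library (x axis, library numbers within each group). IGFBP7, IGFBP6 and IGFBP4 fill the monolayer bars, IGFBP3 and IGFBP6 share the D3 bars unequally between libraries, and IGFBP3 is at least 78.3% of every D11 bar.

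Both receptors fell when cells entered spheroids. IGF1R was at 3.4 to 4.7 TPM at D3, with a median of 4.2, against 8.0 to 9.5 TPM in monolayers, with a median of 8.7. The ranges were separate, and the change was -0.94 ± 0.06 with an adjusted p of 3.5e-15. It was at 4.5 to 6.1 TPM in untreated D11 spheroids, with a median of 4.8, partly above the D3 range. That change was 0.26 ± 0.06 with an adjusted p of 8.2e-04, and within batches it was 0.42 ± 0.07 in batch 2 and 0.09 ± 0.07 in batch 1, a difference of 0.33 with an adjusted p of 0.024. IL-13 spheroids had 3.8 to 5.4 TPM, with a median of 4.45, and overlapped the untreated ones. The change with IL-13 was -0.12 ± 0.07 with an adjusted p of 0.17.

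IGF2R was at 8.5 to 10.7 TPM at D3, with a median of 9.7, against 16.8 to 31.5 TPM in monolayers, with a median of 23.5. Every D3 library lay below every monolayer library, and the change was -1.19 ± 0.13 with an adjusted p of 6.7e-10. The 2 batches of monolayers did not overlap, at 29.4 to 31.5 TPM in batch 2 and 16.8 to 17.6 TPM in batch 1. The change at D3 was accordingly -1.62 in batch 2 and -0.73 in batch 1, a difference of -0.90 with an adjusted p of 2.2e-07. Untreated D11 spheroids had 6.1 to 9.2 TPM, with a median of 7.1, overlapping D3 in part. The change against D3 was -0.34 ± 0.14 with an adjusted p of 0.030, and it was lost, at -0.33 with an adjusted p of 0.056, without D3 libraries 4 and 7. Leaving out any 1 of 6 libraries, D3 libraries 2, 8 and 9 or untreated D11 libraries 4, 6 and 7, also ended that call, with adjusted p of 0.050 to 0.091. Within each batch the change was called, at -0.47 ± 0.08 in batch 2 and -0.31 ± 0.07 in batch 1.

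IL-13 libraries 2 to 6 had 10.0, 10.8, 12.1, 9.9 and 10.0 TPM of IGF2R and library 1 had 5.9 TPM, against 6.1 to 9.2 TPM in untreated D11 spheroids. Of the 6, 5 lay above and 1 below all untreated libraries. The change was 0.42 ± 0.16 with an adjusted p of 0.026. It was not called in the fit of these 2 groups alone, at 0.30 with an adjusted p of 0.11, nor without untreated D11 library 4 or 7 or IL-13 library 3 or 4, with adjusted p of 0.053 to 0.073. As a pair, the log2 ratio of IGF2R to IGF1R was taken with 1 TPM added to each. It was 1.30 ± 0.37 in monolayers, 1.06 ± 0.07 at D3, 0.95 ± 0.32 in IL-13 and 0.45 ± 0.30 in untreated D11 spheroids (SD). By batch it was 1.07 at D3 against 1.65 in monolayers in batch 2, and 1.06 at D3 against 0.95 in monolayers in batch 1, below monolayers in one batch and above them in the other, which was not tested.

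**Figure D4:**
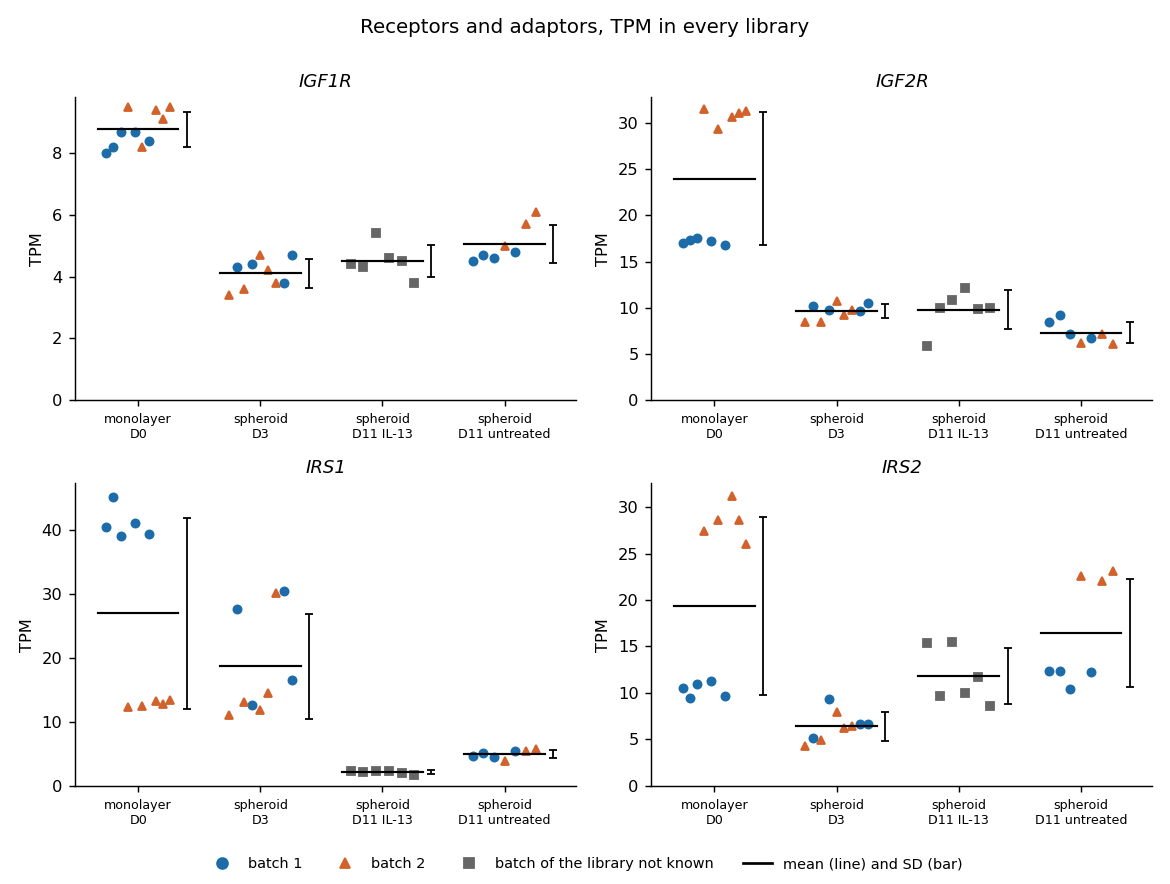
TPM of the receptors IGF1R and IGF2R and the adaptors IRS1 and IRS2 in every library (y axis, from 0) by group (x axis); symbols, lines and bars as for the binding proteins. IGF2R, IRS1 and IRS2 each split by batch in monolayers, and IRS1 is lowest in IL-13 spheroids at 1.7 to 2.4 TPM.

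The adaptors exchanged places between D3 and D11. IRS1 was at 11.1 to 30.5 TPM at D3, with a median of 14.5, against 12.4 to 45.1 TPM in monolayers, and the groups overlapped. Monolayers had 12.4 to 13.5 TPM in batch 2 and 39.1 to 45.1 TPM in batch 1. The change at D3 was 0.21 ± 0.21 in batch 2 and -0.96 ± 0.22 in batch 1, opposite in sign, with a difference of 1.17 and an adjusted p of 0.0030. The batch 2 value was not called, with an adjusted p of 0.36. Without D3 libraries 4 and 7 the values were -0.03 in batch 2 and -0.74 in batch 1, no longer opposite in sign, with a difference of 0.71 and an adjusted p of 0.0029. Without D3 library 7 alone the pooled change was -0.49 and called, with an adjusted p of 0.013. Among D3 libraries, 2, 7 and 8 had 27.7, 30.1 and 30.5 TPM, library 9 had 16.5 TPM and the other 5 had 11.1 to 14.5 TPM.

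In untreated D11 spheroids IRS1 fell to 3.9 to 5.7 TPM, with a median of 5.2, below every D3 and monolayer library. The change against D3 was -1.72 ± 0.22 with an adjusted p of 3.9e-08, and against monolayers -2.07 ± 0.21 with an adjusted p of 2.0e-10. IL-13 spheroids had 2.4, 2.2, 2.3, 2.4, 2.0 and 1.7 TPM, with a mean of 2.17 ± 0.27 TPM, against 4.99 ± 0.64 TPM in untreated D11 spheroids (SD, n = 6 and 7). All 6 lay below all 7 untreated libraries, in either batch. The change was -1.12 ± 0.24 with an adjusted p of 4.4e-04, and it was called in every alternative run for that comparison.

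IRS2 was at 4.3 to 9.4 TPM at D3, with a median of 6.4, against 9.5 to 31.2 TPM in monolayers. The highest D3 library stood just under the lowest monolayer library, and the change was -1.37 ± 0.17 with an adjusted p of 2.9e-08. It was -2.10 ± 0.12 in batch 2 and -0.53 ± 0.13 in batch 1, a difference of -1.57 with an adjusted p of 2.7e-07. After median-of-ratios scaling it was -1.61 in batch 2. In batch 1 it was then -0.03 and not called, with an adjusted p of 0.87. Monolayers had 26 to 31.2 TPM in batch 2 and 9.5 to 11.3 TPM in batch 1, so that the batch with the low IRS1 had the high IRS2. Untreated D11 spheroids had 22.0 to 23.1 TPM in batch 2 and 10.4 to 12.4 TPM in batch 1, all above every D3 library. The change against D3 was 1.28 ± 0.19 with an adjusted p of 7.6e-07, at 1.78 in batch 2 and 0.71 in batch 1. IL-13 spheroids had 8.6 to 15.5 TPM, with a median of 10.8, overlapping the batch 1 untreated libraries and below those of batch 2. That change was -0.23 ± 0.21 with an adjusted p of 0.39.

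The log2 ratio of IRS2 to IRS1 was taken with 1 TPM added to each. This understates its size where levels are low, as for IRS1 in IL-13 spheroids. The ratio was -1.33 ± 0.66 at D3, 1.99 ± 0.27 in IL-13 and 1.48 ± 0.49 in untreated D11 spheroids. In monolayers it was 1.08 ± 0.11 in batch 2 and -1.88 ± 0.16 in batch 1 (SD). IRS1 was the more abundant of the pair in all D3 libraries, and IRS2 in all D11 libraries.

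**Figure D5:**
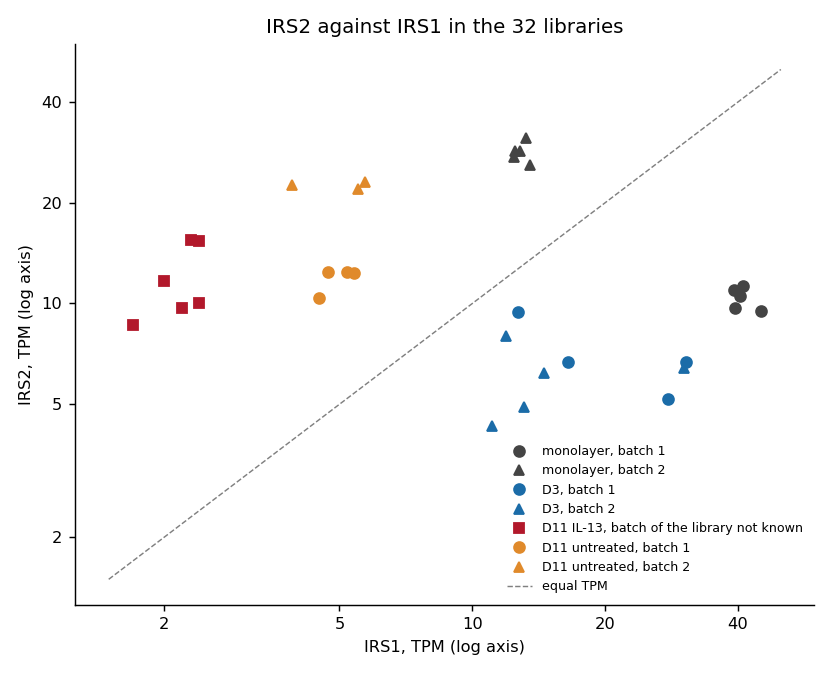
TPM of IRS2 (y axis, log scale) against IRS1 (x axis, log scale) in the 32 libraries, by group (colour) and batch (symbol), with a dashed line at equal TPM. All D3 libraries lie under the line and all D11 libraries above it, while monolayers lie above it in batch 2 and under it in batch 1.

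Across the 3 comparisons that both batches allow, the change of a member differed between batches in 13 of 30 tests. By comparison it was 6 of 10 in D3 spheroids against monolayers, 2 of 10 in untreated D11 against D3 spheroids, and 5 of 10 in untreated D11 spheroids against monolayers. The 6 include IGFBP5, whose change in that comparison the filter fixed. Over all genes tested, 45.2%, 23.8% and 48.3% differed between batches in these comparisons, so the members are near the background. Without D3 libraries 4 and 7 the count was 19 of 30. The share of all genes was not counted in that setting, so the larger count is not a result about the members.

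Of the other genes of the system, ligand and carrier transcripts were few. The counts of their lists stand beside shares of all genes called of 12.7% higher and 68.2% lower at D3 against monolayers, 33.6% and 35.8% at D11 against D3, and 39.2% and 8.49% with IL-13. IGF1 was listed at 0 in all 32 libraries, and the insulin receptor INSR, a partner of IGF1R in hybrid receptors, was at no more than 0.4 TPM. IGF2, the ligand of both receptors, was at 0.6 to 2.1 TPM at D3, with a median of 1.6, against 2.6 to 7.9 TPM in monolayers. The ranges were separate, with a change of -1.40 ± 0.14 and an adjusted p of 4.4e-10. It rose to 9.4 to 17.9 TPM in untreated D11 spheroids, above every D3 library, by 2.59 ± 0.16 with an adjusted p of 7.1e-15. IL-13 spheroids had 12.2 TPM in library 1 and 3.7 to 6.3 TPM in the other 5, against 9.4 to 17.9 TPM in untreated D11 spheroids, a change of -0.80 ± 0.18 with an adjusted p of 5.3e-04. M6PR, the other mannose 6-phosphate receptor, changed by -0.80 at D3 against monolayers and by -0.44 in untreated D11 against D3 spheroids.

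Other secreted proteins with an IGFBP domain include CCN1 and CCN2, matrix proteins whose genes respond to cell spreading. Of the 5 of 13 tested, 1 rose and 3 fell at D3 against monolayers, with a median of -1.06 beside -0.44 for all genes. CCN2 was 1.42 ± 0.34 TPM at D3 and 179 ± 65.0 TPM in monolayers, a change of -6.16 ± 0.15 with an adjusted p of 2.0e-25. CCN1 was 65.6 ± 9.84 TPM at D3 and 715 ± 248 TPM in monolayers, a change of -3.38. HTRA1, a secreted serine protease with an IGFBP domain, rose by 0.62. At D11 against D3, 2 rose and 2 fell, with KAZALD1 up by 2.38 and CCN2 up by 1.73. With IL-13, 1 rose and 3 fell, among them CCN1 at -1.02 ± 0.16, with 29.1 ± 7.14 TPM in IL-13 and 65.4 ± 14.2 TPM in untreated D11 spheroids. The one that rose, CRIM1 at 0.24, was not called after median-of-ratios scaling.

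Of the 4 of 9 tested proteases of binding proteins and their inhibitors, 2 rose and 2 fell at D3 against monolayers, with a median of -0.65 beside -0.44 for all genes. The lysosomal protease CTSD rose by 0.85 ± 0.06, and the metalloprotease ADAM9 fell by 1.53 ± 0.07 on the log2 scale. STC2, a stanniocalcin that inhibits the IGFBP4 protease pappalysin, fell by 2.73 ± 0.55, with 20.1 ± 23.6 TPM at D3 and 146 ± 122 TPM in monolayers. With IL-13, 3 rose and none fell, with a median of 0.45 beside 0.19 for all genes, of which 39.2% were called higher and 8.49% lower. Among the 3, ADAM9 rose by 0.58 ± 0.09 and STC1 by 0.49 ± 0.12. Median-of-ratios scaling left 2 of these 3 counted as higher.

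The intracellular part of the pathway, from adaptors through PI3 kinase and AKT to mTOR, stayed near the median of all genes. Of 38 of 41 genes tested, 4 rose and 28 fell at D3 against monolayers, with a median of -0.54 beside -0.44 for all genes, and after median-of-ratios scaling the count was 10 and 18. PIK3R1, the regulatory subunit of PI3 kinase, rose by 0.71 ± 0.15, and PIK3CD, a catalytic subunit, fell by 1.48 ± 0.06. At D11 against D3, 18 rose and 12 fell, and with mitochondrial genes removed 3 rose and 28 fell. EIF4EBP1, the translation repressor that mTOR phosphorylates, rose by 2.82 ± 0.14, with 90.9 ± 4.38 TPM at D11 and 12.7 ± 3.29 TPM at D3. With IL-13, 14 rose and 3 fell, with a median of 0.15 beside 0.19 for all genes, against 5 and 9 after median-of-ratios scaling. The adaptor gene SH2B1 rose by 0.68 ± 0.09 and DOK4 by 0.74 ± 0.14.

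FOXO transcription factors are held out of the nucleus by AKT, and their targets are a common readout of low pathway activity. Of 17 of 19 FOXO genes and targets tested, 8 rose and 5 fell at D3 against monolayers, with a median of 0.20 beside -0.44 for all genes. SESN3 rose by 2.11 ± 0.06, with 40.4 ± 2.69 TPM at D3 and 8.62 ± 0.65 TPM in monolayers. TXNIP rose by 2.02 ± 0.55 in the pooled fit and by 0.07 in batch 2 alone, where it was not called. Among those that fell, SESN2 changed by -1.68 ± 0.42, with 12.1 ± 11.9 TPM at D3 and 47.2 ± 39.0 TPM in monolayers (SD). GADD45A changed by -0.88 ± 0.22, with 200 ± 69.1 TPM at D3 and 420 ± 264 TPM in monolayers (SD). Both spread widely between libraries. At D11 against D3, 11 rose and 2 fell, with a median of 0.63 beside -0.02 for all genes, of which 33.6% were called higher and 35.8% lower, while with mitochondrial genes removed 5 rose and 8 fell. CITED2 rose by 1.99 ± 0.15 in that comparison as deposited, while SESN3 changed by -0.34 ± 0.07 and SESN1 by -0.17 ± 0.06. With IL-13, 6 rose and 2 fell as deposited, and 4 rose and 5 fell after median-of-ratios scaling. PIK3IP1, an inhibitor of PI3 kinase, rose by 1.62 ± 0.26, with 70.6 ± 12.4 TPM in IL-13 and 25.2 ± 2.54 TPM in untreated D11 spheroids, and BCL6 by 0.92 ± 0.15. FBXO32 changed by -0.42 ± 0.14 and SESN3 by -0.30 ± 0.08 with IL-13.

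For the 5 members whose group means spanned at least 2 on the log2 scale, the genes with the most similar course over the 32 libraries were sought among the 12221 tested. The measure was the mean absolute difference between the log2(TPM + 1) values, each centred on its own mean. IGFBP3 was nearest to CKB, with a difference of 0.57, and then to RHOV and NOTCH3. IGFBP6 was nearest to GLUL, at 0.46, then to GSR and IFITM2. IRS1 was nearest to TFRC, at 0.27, then to ANLN and CKS2. IGFBP4 was nearest to CYP27B1, ANPEP and TACC1, at 0.24 each, and IGFBP2 to EPHB6, at 0.19, then CYP2W1 and MYCL.

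The 10 members lie on 8 chromosomes of hg38 in GENCODE 29. IGFBP3 is on chromosome 7 at 45912245 to 45921874 on the minus strand, and IGFBP6 on chromosome 12 at 53097436 to 53102345 on the plus strand. IRS1 is on chromosome 2 at 226731317 to 226799759, IRS2 on chromosome 13 at 109752698 to 109786568, both on the minus strand. Exons of IGFBP5 overlap AC007563.2, those of IGFBP7 overlap IGFBP7-AS1 and POLR2B, and those of IRS2 overlap AL162497.1, each on the opposite strand. The handling of strand is not given in the sources used here, so reads from such pairs could not be told apart.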

How the data were processed

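The authors deposited 1 table of TPM values for 19345 gene symbols and 32 libraries, rounded to 1 decimal. The submitters' processing notes name hg38 as the build. The sources used here do not give the aligner, quantifier or annotation. TPM divides by each library's total and keeps no depth, so precision rests on the spread between libraries. Values were taken as log2(TPM + 1), keeping genes that reached 1 TPM in 6 libraries or more. limma 3.58.1 (R 4.3.3) fitted group and batch with a trend on mean level, and Benjamini-Hochberg adjustment ran over the 12221 genes, with a threshold of 0.05. Each IL-13 column carried the share of its group in batch 2, 1 of 6. The change in each batch was tested with group, batch and their interaction, without IL-13. The fit was tested on simulated data.

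Of the columns, 26 matched 1 sample by name and 6 the IL-13 group. Pairs of libraries of 1 group had r of 0.974 to 0.997 over genes, and none was treated as a duplicate. The members, the pathway and marker lists and the tests were chosen with earlier results of these data known. All members were named, and from each pathway list up to 2 rises and 2 falls per comparison, of which the text gives a part. IGFBP1 was not analysed here. Alternatives were other pseudocounts, filters, scalings, batch terms, library weights and left-out libraries. 1 part of the culture protocol is not reported here.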

Additional observations from a re-analysis of the deposited data

Results flagged for a closer look

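Of 38 groups of a member that could be examined for a lone sample, 4 held a value far from the rest of its group, and chance gives about 1 in 20. IGFBP2 was 0.1 TPM in monolayer library 4 and listed at 0 in the other monolayers, where any value above 0 would stand out, so it says nothing of that library. IGFBP5 was 2.5 TPM in D3 library 9, the highest of its group. IL-13 library 1 was low for IGFBP4, at 0.5 TPM, and for IGF2R, at 5.9 TPM. Untreated D11 libraries of batch 2 had 0.4 to 0.7 TPM of IGFBP4 and 6.1 to 7.1 TPM of IGF2R. Those of batch 1 had 0.8 to 1.5 TPM and 6.7 to 9.2 TPM. Batch 2 holds 1 IL-13 library, and whether it is library 1 was not tested.

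The change of a member differed between batch 2 and batch 1 in 13 tests of the difference itself, given as the change in batch 2 minus that in batch 1 on the log2 scale. In D3 spheroids against monolayers the differences were 2.32 for IGFBP3, -0.23 for IGFBP5, -0.62 for IGFBP7, -0.90 for IGF2R, 1.17 for IRS1 and -1.57 for IRS2. That of IGFBP5 is set against monolayers at 0 to 0.1 TPM, in a change that the filter fixed, and supports nothing. In untreated D11 against D3 spheroids they were 0.33 for IGF1R and 1.08 for IRS2. In untreated D11 spheroids against monolayers they were -0.49 for IGFBP4, -0.56 for IGFBP7, -1.05 for IGF2R, 1.61 for IRS1 and -0.49 for IRS2. After median-of-ratios scaling the count was again 13 of 30, but the tests were not all the same. IGFBP5 at D3 and IGFBP4 and IRS2 at D11, all against monolayers, were lost, with adjusted p of 0.10, 0.059 and 0.22. IGF1R at D3 and IGFBP6 and IGF1R at D11, also against monolayers, entered, with adjusted p of 0.027, 0.034 and 0.013.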

How the results depend on the processing

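Over the members' changes, 1107 alternative values kept direction and call, 26 gained a call, 23 lost one and 22 changed sign. Many of these values are refits with 1 library left out, which stay close to the full fit. With quantile normalization 32 values kept both, 4 changed sign, 2 gained a call and 2 lost one. In batch 1 alone 25 kept both, 2 changed sign, 2 gained a call and 1 lost one. Changes of sign for IRS1 in D3 spheroids against monolayers were 0.16 with median-of-ratios scaling, 0.13 with quantile normalization and 0.21 in batch 2 alone. In untreated D11 against D3 spheroids, IGFBP2 gave 0.021 with a pseudocount of 0.1, 0.0040 with quantile normalization, 0.24 in batch 1 alone and -0.18 to 0.092 when 1 library was left out. There IGFBP7 gave 0.17 and IGF2R 0.22 with library weights, and IGF1R -0.25 with mitochondrial genes removed. In untreated D11 spheroids against monolayers, IRS2 gave 0.48 with median-of-ratios scaling, 0.36 with quantile normalization, 0.040 with library weights and 0.17 in batch 1 alone. With IL-13, IGFBP5 gave 0.017 with a pseudocount of 0.1. IGFBP7 gave -0.079 with median-of-ratios scaling and -0.091 with quantile normalization. The cause was not tested.

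Requiring a mean of 5 TPM, which leaves fewer genes tested, gave 6025, 5341, 6266 and 3867 genes called in the 4 comparisons, and IL-13 against the 4 batch 1 untreated libraries gave 3036. In untreated D11 against D3 spheroids 10 members were called with mitochondrial genes removed, 1 higher and 9 lower, beside 1718 genes higher and 8326 lower. With IL-13 5 were called with library weights, beside 5961 higher and 1357 lower of the 12221 genes. The IL-13 calls of IGFBP4 and IGF2R were each lost in some alternatives, at 0.32 and 0.18 with quantile normalization.

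Replicate numbers gave no clear pairing of the libraries: correlations of same-numbered libraries ran from -0.44 to 0.36. Batch was left in these values. Of the pairs, 2 of 9, 3 of 7 and 6 of 7 shared a batch in the first 3 comparisons. The correlations therefore cannot settle whether the numbers pair libraries. With the replicate number as a block, 9, 5 and 8 members were called in the first 3 comparisons, beside 9927, 8573 and 10277 of the 12221 genes. In that fit IGF2R in untreated D11 against D3 spheroids was -0.27 with an adjusted p of 0.084. For untreated D11 spheroids against monolayers it gave 0.023 for IGFBP5 and 0.067 for IRS2. IL-13 columns carry no sample number, so they had no such fit. Depth is unknown, so low values such as those of IGFBP5 have no counting error.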
